A study of Mus musculus with 6 samples.

Results

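This report describes 10 genes of cyclic AMP (cAMP) signalling in regulatory T (Treg) cells, chosen by gene symbol from the 24420 genes of a count table: the phosphodiesterase genes *Pde2a*, *Pde3b*, *Pde4a*, *Pde4b*, *Pde4d* and *Pde7a*, the adenylyl cyclase gene *Adcy7*, the protein kinase A (PKA) genes *Prkar1a* and *Prkaca*, and the adenosine receptor gene *Adora2a*. All 10 were found in the table and all 10 passed the filter on low counts. They were chosen with the fold changes of the comparison below already known, so the differences between genotypes are given as a description of these samples, and a count over the 10 is no evidence of its own.

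The samples were YFP+ Treg cells from lymph nodes of female C57BL/6 mice, 3 of them *Foxp3* YFP-Cre/wt *Ogt* wt/fl (OGT-sufficient) and 3 *Foxp3* YFP-Cre/wt *Ogt* fl/fl (OGT-deficient). The paper's methods for this sort name no tissue, and its general Treg purification used both lymph nodes and spleen, so cells from spleen may be included. The mice received no treatment that the labels name, and were 6 to 12 weeks old by the general description of the animals. OGT is the enzyme that attaches O-GlcNAc to serines and threonines of intracellular proteins. Every mouse of both groups carried Cre under *Foxp3* on 1 X chromosome and at least 1 floxed *Ogt* allele. *Ogt* is X-linked too, and whether the *Ogt* wt/fl mice had their floxed allele on the X chromosome with Cre is not given in the sources used here. The OGT status of their YFP+ cells follows the study's naming. In both genotypes the sort left out Treg cells that used the other X chromosome.

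cAMP is a small diffusible messenger made from ATP by adenylyl cyclases, most of which are switched on by receptors coupled to the G protein Gs. It binds the regulatory subunits of PKA and so frees the catalytic subunits, and it is removed by phosphodiesterases. In T cells, PKA restrains signalling from the antigen receptor, and Treg cells are known both for a high cAMP content and for producing extracellular adenosine, which acts on the Gs-coupled receptor encoded by *Adora2a*.

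Total counts were between 3375454 and 4103552 per sample. Of these totals, the ribosomal RNA gene *Rn45s* made up 24.2% in OGT-sufficient replicate 3 and between 30.6% and 37.1% in the other samples. A single count was worth between 0.253 and 0.269 CPM, the unit of expression level used here (the count relative to a library size scaled by edgeR's TMM method). The targeted gene *Ogt* had between 562 and 957 counts in OGT-sufficient samples and between 266 and 368 in OGT-deficient samples. OGT-sufficient replicate 3 stood apart: it detected 18346 genes, where the other 5 samples detected 14412 to 15197, and 27.4% of the 10949 genes tested had their highest level there. All 7 Treg markers, among them *Foxp3* and *Il2ra*, had counts in every sample, with a summed level of 1997 CPM in that replicate and between 2643 and 2966 CPM in the others. Markers of other cells were present as well. All 11 macrophage markers had counts in every sample, and their sum was between 1899 and 4096 CPM in OGT-sufficient and between 1396 and 5860 CPM in OGT-deficient samples. The sums of the 4 erythroid markers (838 CPM), the 7 B-cell markers (679.7 CPM) and the 4 measured neutrophil markers (138 CPM) were highest in OGT-sufficient replicate 3. Elsewhere these 3 sums were between 212 and 472, between 365 and 627 and between 6.71 and 28.3 CPM. The 5 CD8 and NK markers summed to at most 32.5 CPM, with *Ncr1* at 0 in 3 samples. In such bulk samples, fewer cells of a type and less RNA per cell cannot be told apart.

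*Pde2a*, which encodes a phosphodiesterase that cGMP activates and that degrades both cAMP and cGMP, was the member with the largest difference. OGT-sufficient replicates 1, 2 and 3 gave 133, 170 and 162 counts, whereas the OGT-deficient replicates gave 81, 105 and 72. All 3 OGT-deficient samples were below all 3 OGT-sufficient ones. Mean levels were 41.3 ± 5.25 CPM in OGT-sufficient mice and 22.1 ± 3.99 CPM in OGT-deficient mice (SD, n = 3 each). The log2 fold change was -0.90 with a standard error of 0.17 (95% interval -1.30 to -0.50). Its unadjusted p of 0.00062 ranked 32 among 10949 genes, and the adjusted p of 0.212 by edgeR's quasi-likelihood test did not pass the false discovery rate (FDR) of 0.1. Other fits passed this FDR, with an adjusted p of 0.0819 in DESeq2 and 0.0071 in the exact test of edgeR. In the quasi-likelihood test it was 0.0146 when low counts were not filtered, while leaving out OGT-deficient replicate 2 raised it to 0.715. The unadjusted p of that last fit was 0.00068, at a log2 fold change of -1.02. With each sample left out in turn the log2 fold change stayed between -1.02 and -0.76. In OGT-sufficient replicates 1, 2 and 3 the macrophage marker sums were 4096, 3684 and 1899 CPM, and *Pde2a* was at 35.5, 45.8 and 42.6 CPM. In OGT-deficient replicates 1, 2 and 3 the sums were 1396, 5050 and 5860 CPM, and *Pde2a* was at 20.9, 26.6 and 18.9 CPM. The part of macrophages or other cells in the *Pde2a* level was not tested. In GENCODE M21, *Pde2a* lies on chromosome 7 from 101421691 to 101512827 (GRCm38, plus strand) and shares 3955 exonic bases with the overlapping gene model *Gm45837*, which was not analysed here. The microRNA gene *Mir139* lies within it and had 0 counts in every sample.

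**Figure D1:**
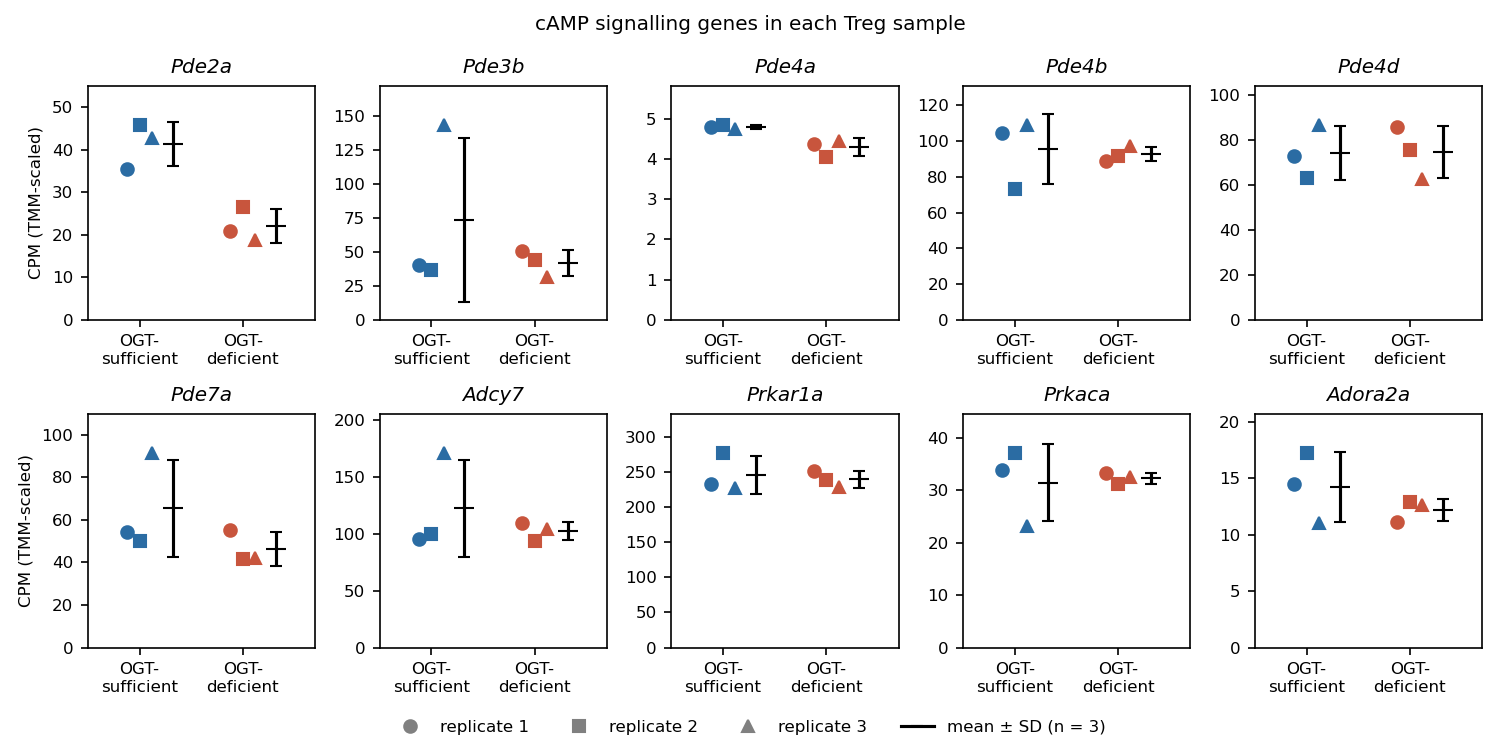
Level of each of the 10 genes in CPM (vertical axes, starting at 0) in the 3 OGT-sufficient (blue) and 3 OGT-deficient (red) samples; symbols mark the replicate and black bars the mean ± SD. The *Pde2a* samples separated by genotype at 18.9 to 26.6 against 35.5 to 45.8 CPM, while OGT-sufficient replicate 3 stood alone for *Pde3b* at 143 CPM.

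Promoter windows from RefSeq (GRCm38.p6), each 250 bases before to 50 after a gene start, were at hand for 7 of the 10 members, in 24 windows, the others being *Pde3b*, *Pde7a* and *Adora2a*. They were searched on both strands for the cAMP response element TGACGTCA, its core TGACG (which the full element contains) and the STAT5-type motif TTCNNNGAA. The full element was in 2 of the 24 windows, both of *Prkar1a* and sharing the same site, against 1.79% of all 32851 windows. The core was in 8 windows (20.8% of all windows) and the STAT5-type motif in 2, one each of *Pde4b* and *Adcy7* (8.30% of all windows). In the list of cAMP-responsive transcripts, chosen for that response, 12 of 12 windows held the core and 2, of *Areg* and *Dusp1*, the full element. Which gene start was in use in these cells was not measured. The 250 bases before 2 of these starts are shown for the member with the largest difference, *Pde2a* (its first start, chr7:101421441-101421690, plus strand, none of the 3 motifs), and for *Prkar1a*, the 1 member with the full element (chr11:109650699-109650948, plus strand), where that element, in capitals, begins 49 bases before the start.
Pde2a: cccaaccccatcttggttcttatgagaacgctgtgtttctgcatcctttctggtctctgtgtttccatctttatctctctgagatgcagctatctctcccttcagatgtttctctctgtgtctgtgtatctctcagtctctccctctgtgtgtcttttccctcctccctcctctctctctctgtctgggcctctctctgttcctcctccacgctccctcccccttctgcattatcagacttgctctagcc
Prkar1a: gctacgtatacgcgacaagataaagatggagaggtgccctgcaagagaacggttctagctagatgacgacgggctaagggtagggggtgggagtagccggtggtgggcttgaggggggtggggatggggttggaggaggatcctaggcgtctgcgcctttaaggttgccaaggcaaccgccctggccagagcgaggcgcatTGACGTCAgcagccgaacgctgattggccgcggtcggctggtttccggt

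*Pde3b* and *Pde7a* had lower mean levels in OGT-deficient samples too, but the differences were much smaller or turned without 1 sample. *Pde3b* (chr7:114415281-114539251, GRCm38) encodes a cAMP phosphodiesterase that cGMP inhibits. The OGT-sufficient samples had 150, 137 and 545 counts of it, the OGT-deficient ones 196, 173 and 121. OGT-sufficient replicate 3 was far above the other 5, and the remaining OGT-sufficient samples lay within the OGT-deficient range. By edgeR's quasi-likelihood test the adjusted p was 0.757, and the log2 fold change of -0.81 ± 0.48 (SE) became 0.14 without that replicate. *Pde7a* (chr3:19223108-19311322), which encodes a phosphodiesterase specific for cAMP, had 204, 186 and 348 counts in OGT-sufficient mice and 215, 164 and 161 in OGT-deficient mice. The same replicate was the highest, and the groups overlapped. By the same test the adjusted p was 0.724, and the log2 fold change of -0.50 ± 0.24 (SE) became -0.16 without that replicate. The erythroid, B-cell and neutrophil sums were highest in that replicate too, which is 1 shared high sample and not an order kept over the others. The part of such cells in the *Pde3b* and *Pde7a* levels was not tested.

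The 3 members from the cAMP-specific PDE4 subfamily, the target of rolipram, had log2 fold changes between -0.16 and 0.01. Each had an interval that included 0. *Pde4b* (chr4:102087543-102607259) had 392, 271 and 414 counts in OGT-sufficient mice and 345, 363 and 370 in OGT-deficient mice. OGT-sufficient replicate 2 was lowest and OGT-sufficient replicate 3 highest, so the control samples enclosed the OGT-deficient ones. Its log2 fold change was -0.05 (95% interval -0.41 to 0.31). *Pde4d* (chr13:108449948-109953461) had 273, 234 and 329 counts in OGT-sufficient mice and 332, 299 and 238 in OGT-deficient mice. The groups overlapped over nearly their whole range, and the log2 fold change was 0.01 (95% interval -0.36 to 0.38). *Pde4a* (chr9:21165714-21213248) had 18 counts in each OGT-sufficient sample and 17, 16 and 17 in the OGT-deficient samples. After scaling, its groups did not overlap, at 4.80 ± 0.0559 against 4.30 ± 0.218 CPM (SD, n = 3 each), though they were at most 2 counts apart. Its log2 fold change of -0.16 had a 95% interval of -0.77 to 0.45. The groups overlapped when scaled by library size only, but not by library size without *Rn45s*, a setting added after seeing the data. How the authors' counting treated reads shared between the PDE4 genes is not given in the sources used here.

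On the side of cAMP production, *Adora2a*, the receptor gene (chr10:75316877-75334784), had 54, 64 and 42 counts in OGT-sufficient mice and 43, 51 and 48 in OGT-deficient mice. OGT-sufficient replicate 3 was level with the lowest OGT-deficient sample, and the groups overlapped. Mean levels were 14.2 ± 3.10 CPM in OGT-sufficient mice and 12.2 ± 0.965 CPM in OGT-deficient mice (SD, n = 3 each). The log2 fold change was -0.22 (95% interval -0.72 to 0.27). Without OGT-sufficient replicate 3 it was -0.37, still with an adjusted p of 0.820 (edgeR's quasi-likelihood test). *Adcy7* (chr8:88272403-88329962), which encodes an adenylyl cyclase prominent in lymphoid and myeloid cells, had 357, 372 and 651 counts in OGT-sufficient mice and 424, 371 and 398 in OGT-deficient mice. As for *Pde3b* and *Pde7a*, OGT-sufficient replicate 3 was the highest and the other samples lay close together. The log2 fold change of -0.26 (95% interval -0.74 to 0.23) became 0.08 without that replicate.

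The PKA genes differed between the groups by less than the spread between replicates. *Prkar1a* (chr11:109649405-109669656), which encodes the regulatory subunit RIα, had 872, 1031 and 863 counts in OGT-sufficient mice and 977, 942 and 872 in OGT-deficient mice. The groups overlapped, at 246 ± 27.7 and 239.6 ± 11.8 CPM (SD, n = 3 each), and the log2 fold change was -0.04 (95% interval -0.31 to 0.23). *Prkaca* (chr8:83972993-83996443), which encodes the catalytic subunit Cα, had 127, 138 and 88 counts in OGT-sufficient mice and 129, 123 and 124 in OGT-deficient mice. OGT-sufficient replicate 3 was lowest, and the log2 fold change was 0.04 (95% interval -0.38 to 0.46), or -0.13 without that replicate.

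**Figure D2:**
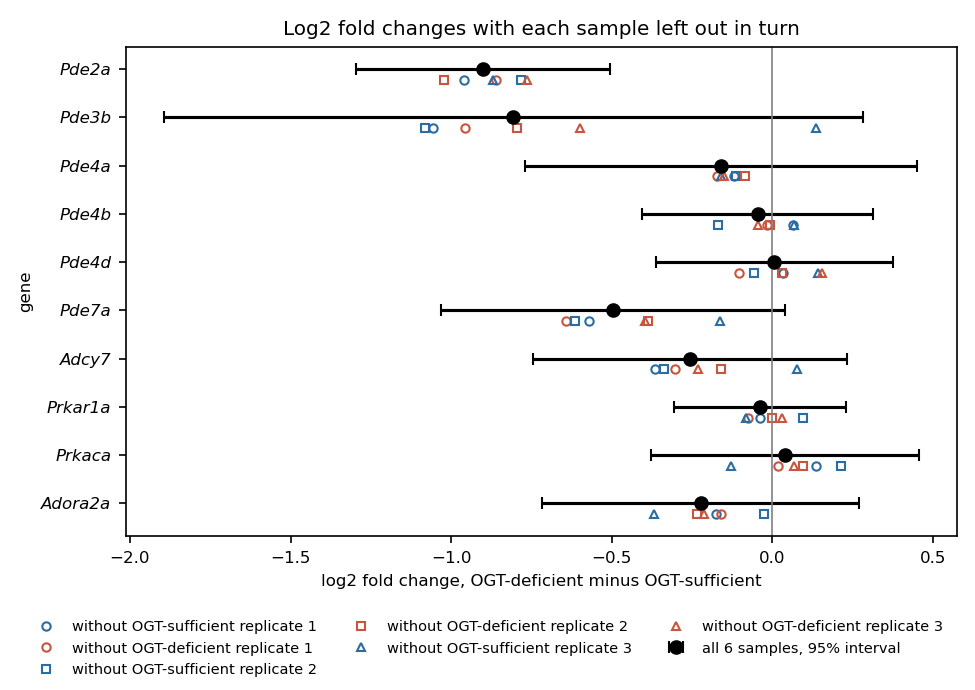
Log2 fold change (horizontal axis, OGT-deficient minus OGT-sufficient) of each gene with its 95% interval (black) and with each sample left out in turn (open symbols). The *Pde2a* values stayed between -1.02 and -0.76, whereas *Pde3b* moved from -0.81 to 0.14 without OGT-sufficient replicate 3.

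Over the 10 genes, 0 passed an FDR of 0.1 in edgeR's quasi-likelihood test, against 0.0274% of all genes tested. The targeted gene *Ogt* did not pass it either, with an adjusted p of 0.191 in that test. Failing this FDR therefore does not show that a level was unchanged. At an unadjusted p under 0.05, 1 of the 10 was lower (*Pde2a*, against 4.01% of all genes) and 0 were higher (against 3.09%). In 2 of the 10 the genotypes were fully separated (against 13.2% of all genes), and these, *Pde2a* and *Pde4a*, were both lower (against 7.48%), with 0 higher (against 5.72%). Without OGT-sufficient replicate 3 the count was 4, with *Prkaca* and *Adora2a* added, and the share of all genes was 23.3%. The log2 fold change was negative for 8 of the 10, with a median of -0.19, against 52.7% and a median of -0.02 over all genes tested. OGT-sufficient replicate 3 gave the highest level of 5 of the 10 (27.4% of all genes tested) and OGT-sufficient replicate 2 that of the other 5 (14.7% of all genes tested). The median was -0.11 without the former (0.003 over all genes tested) and -0.12 without OGT-deficient replicate 2 (0.0105 over all genes tested). These counts follow from members chosen on the same comparison and are given for description.

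Levels of different genes were compared per kilobase of exon sequence, as CPM per kb over the 6 samples. *Prkar1a* was highest at 56.2 CPM per kb, with samples between 52.6 and 64.3. *Adcy7* followed at 16.7 (13.9 to 25.5), *Prkaca* at 12.8 (9.31 to 14.9), *Pde4b* at 8.91 (6.91 to 10.3), *Pde7a* at 7.21 (5.36 to 11.8), *Pde3b* at 6.34 (3.48 to 15.7), *Pde4d* at 6.20 (5.20 to 7.21), *Pde2a* at 5.16 (3.07 to 7.45) and *Adora2a* at 4.32 CPM per kb (3.61 to 5.63). *Pde4a* was lowest at 0.594 CPM per kb (0.529 to 0.633). Only *Prkar1a* and *Pde4a* were clear of their neighbours, since the ranges of every other adjacent pair overlapped. The order depended on the length used: with the longest coding transcript in place of all exons, *Pde4b* at 21.9 and *Pde4d* at 17.7 CPM per kb moved to either side of *Adcy7* at 18.9.

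**Figure D3:**
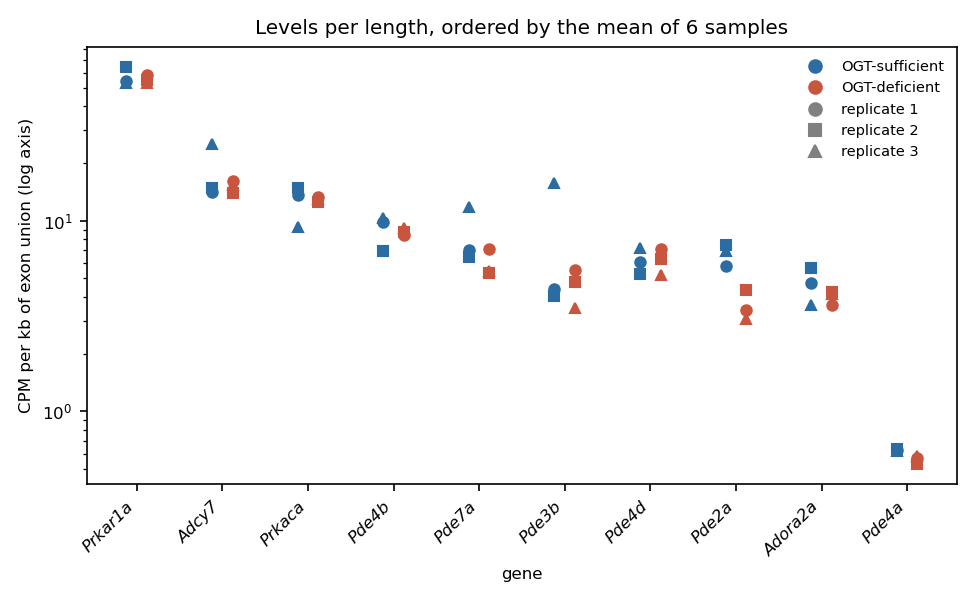
CPM per kb of exon sequence (vertical log axis) of the 10 genes in each sample, blue for OGT-sufficient and red for OGT-deficient, ordered by the mean of the 6 samples. *Prkar1a* (52.6 to 64.3) and *Pde4a* (0.529 to 0.633) stood clear of the other 8.

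*Adora2a*, *Prkar1a* and *Adcy7* carried most of the measured transcript of their families. Of the summed per-length level of 4 adenosine receptor genes, *Adora2a* made up between 92.9% and 100% in each sample. *Prkar1a* made up between 83.9% and 89.5% of the 4 PKA regulatory subunit genes. *Adcy7* made up between 52.4% and 63.0% of the 10 adenylyl cyclase genes, and *Prkaca* between 33.6% and 41.1% of the sum with *Prkacb*. Among the 24 listed genes with a *Pde* symbol no single one dominated. *Pde4b* made up between 15.2% and 22.1% of their sum. *Pde2a* made up 13.0 ± 3.38% (SD, n = 3) of it in OGT-sufficient and 8.47 ± 1.49% (SD, n = 3) in OGT-deficient Treg cells. This share, unlike the *Pde2a* level, nearly met between the groups, at 10.2% in OGT-sufficient replicate 3 and in OGT-deficient replicate 2, the sum itself being highest in the former. That summed level was 67.9 CPM per kb in OGT-sufficient replicate 3 and between 41.6 and 47.9 in the other samples.

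A further 97 genes of the pathway were read from the same fit, of which 64 had enough counts to be tested. None passed an FDR of 0.1 in edgeR's quasi-likelihood test, by DESeq2 or by edgeR's exact test. At an unadjusted p under 0.05, here named a call, 1 was lower and 4 were higher, 5 of 64 in all, against 7.10% of all genes tested. The groups did not overlap in 3 that were lower (7.48% of all genes) and 6 that were higher (5.72%), beside 13.2% of all genes tested in either direction. Their median log2 fold change was -0.07, beside -0.02 for all genes tested. Leaving out OGT-sufficient replicate 1, OGT-sufficient replicate 3 or OGT-deficient replicate 2 brought it to -0.0097, -0.0017 or -0.0137. The median of all genes tested moved as well, to 0.0272, 0.003 and 0.0105 in the same fits. Of the 18 other listed genes with a *Pde* symbol 12 had too few counts, and 0 of the 6 tested were called. *Pde3a*, the paralogue of *Pde3b*, had 0 counts in every sample (a count of 0 allows up to 0.759 to 0.808 CPM, counting error only). Of the other adenylyl cyclase genes 3 of 9 were tested, with *Adcy3* the highest at 36.1 CPM, and 0 were called. Of the other receptors and G proteins 12 of 18 were tested and 0 called. *Gnai2*, the inhibitory G protein subunit, at 699.8 CPM and *Gnas*, the stimulatory one, at 339.8 CPM had log2 fold changes of 0.13 and 0.05 (standard errors 0.15 and 0.13). Of the other PKA and EPAC genes 7 of 9 were tested and 0 called, with *Prkacb* at 180.4 CPM and a log2 fold change of 0.05 (standard error 0.11). Of 14 A-kinase anchoring proteins, which hold PKA at its sites of action, 9 were tested and 0 called, *Akap13* at 1176 CPM and *Akap9* at 243 CPM being the highest.

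The 5 genes past an unadjusted p of 0.05 came from the lists of cAMP-responsive transcripts, CREB coactivators and adenosine handling. *Nr4a1*, an orphan nuclear receptor gene induced by cAMP and by antigen receptor signals, had 385, 333 and 325 counts in OGT-sufficient mice and 511, 502 and 461 in OGT-deficient mice. Every OGT-deficient sample was above every OGT-sufficient one, at a log2 fold change of 0.45 ± 0.12 (SE), with an adjusted p of 0.401 by edgeR's quasi-likelihood test. Its relative *Nr4a3* had 251, 282 and 259 counts against 346, 336 and 312, without overlap in CPM, at a log2 fold change of 0.28 ± 0.11 (SE), with an adjusted p of 0.673 by that test. *Junb*, an AP-1 subunit gene, had 502, 502 and 508 counts against 390, 377 and 419 and was the 1 lower gene, at a log2 fold change of -0.40 ± 0.11 (SE), with an adjusted p of 0.431 by that test. *Dusp1*, a phosphatase gene and the highest of the cAMP-responsive transcripts at 168 CPM, had a log2 fold change of 0.42 with a standard error of 0.26. Within each genotype its samples stood in the order of their macrophage marker sums, whose part in its level was not tested. Of 11 cAMP-responsive transcripts tested, 2 were higher (3.09% of all genes), 1 was lower (4.01%) and 8 were not called.

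*Crtc1*, a coactivator of the cAMP-responsive transcription factor CREB, had 64, 82 and 84 counts in OGT-sufficient mice and 108, 108 and 96 in OGT-deficient mice. Its log2 fold change was 0.39 ± 0.16 (SE), with an adjusted p of 0.683 by edgeR's quasi-likelihood test. The other 7 of the 8 CREB family and coactivator genes were not called. *Crebbp* at 522 CPM and *Ep300* at 330.0 CPM were the highest of them. *Ada*, adenosine deaminase, had 31, 33 and 25 counts against 40, 51 and 43, without overlap in CPM, at a log2 fold change of 0.54 ± 0.22 (SE), with an adjusted p of 0.675 by that test. The other 8 genes of its list were not called. They included the adenosine-producing ectonucleotidases *Entpd1* (0.29, standard error 0.36) and *Nt5e* (-0.33, standard error 0.20) and the PKA substrate kinase *Csk* (-0.01, standard error 0.12) with its anchor *Pag1* (-0.11, standard error 0.16), all given as log2 fold changes. *Entpd1* too stood in the order of the macrophage sums within each genotype, and their part in it was not tested.

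**Figure D4:**
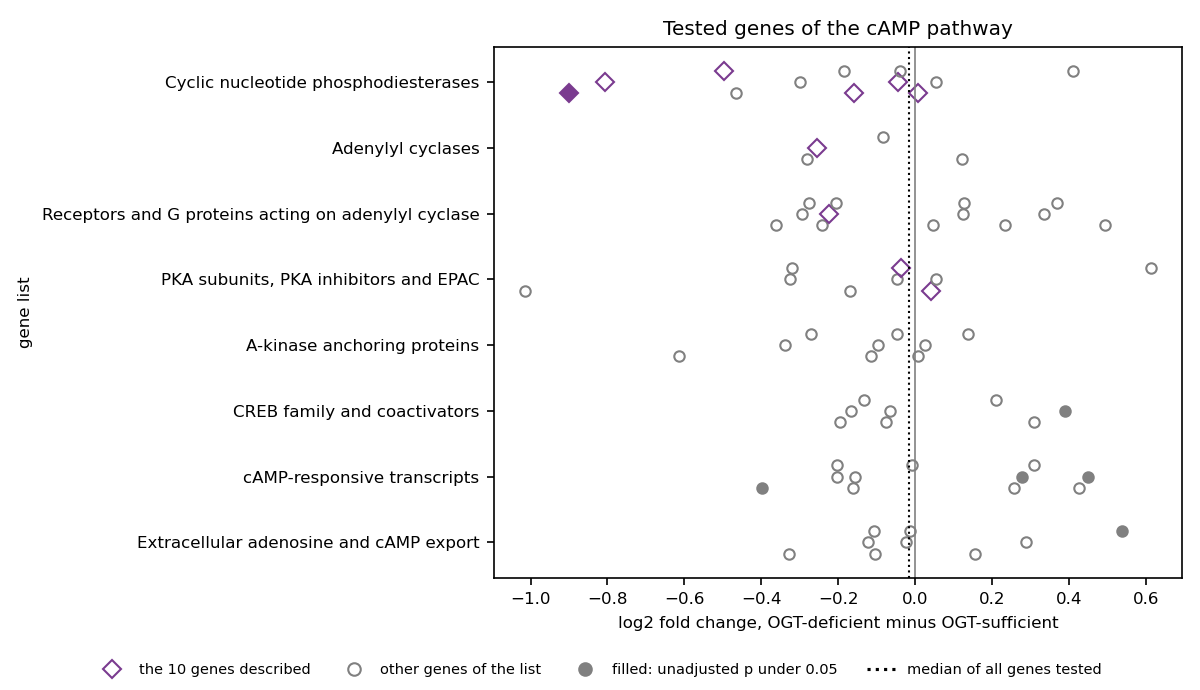
Log2 fold change (horizontal axis, OGT-deficient minus OGT-sufficient) of each tested gene by list, with the 10 members as purple diamonds and symbols filled at an unadjusted p under 0.05. *Pde2a* at -0.90 is the 1 filled member, and the filled genes of the other lists lie between -0.40 and 0.54.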

How the data were processed

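RNA of sorted YFP+ Treg cells from 6 mice was measured by paired-end RNA sequencing. The authors trimmed reads with Trimmomatic 0.33 and aligned them with Bowtie2 2.2.4.0, to mm10 per the submitters' processing notes. Their methods text names Cuffquant for quantification, whereas the processing notes list featureCounts. The annotation, strand setting and treatment of shared reads are not given in the sources used here. The deposited values are whole-number counts per gene symbol without normalization. The table also holds the authors' own p-values, FDR, fold changes and group means, which were not used.

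Samples were grouped by their labels. Nothing in the labels says how the mice were matched, and p-values measure the spread between these samples. The comparison was fitted by edgeR 4.0.16 in R 4.3.3 (quasi-likelihood test, TMM, minimum count 10, Benjamini-Hochberg adjustment over 10949 genes) and, as alternatives, by DESeq2 1.42.0 and by edgeR's exact test. The edgeR fit was repeated with a block for the replicate number, without each sample, with no filter or with a minimum of 10 counts in all samples, and with the size factors of DESeq2 or the bare library size. Library size without *Rn45s* was added after seeing the data. Figures and sequence searches used Python 3.11.15. Standard errors (SE) were derived from the log2 fold change and its F statistic, and 95% intervals use a t quantile at 8.92 degrees of freedom. No exact permutation test was run, since with 3 samples a group its smallest two-sided p is 0.1. The test was tried on simulated counts with known changes. It recovered 54% of 100 genes changed 2-fold and 94% of 100 genes changed 4-fold, and 12.4% of its calls were unchanged genes. Lengths were taken from GENCODE M21, which held 95.7% of the symbols.

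The members, the pathway and marker lists and the tests were chosen with earlier results of these data known. Named genes are the members, *Ogt*, pathway genes at an unadjusted p under 0.05 and the 2 highest of each pathway list. *Pde3a*, *Entpd1*, *Nt5e*, *Areg*, and the genes under other observations were singled out after their values were seen. The chi-square per degree of freedom over the genes tested was at least 3.46 in every pair of samples, so each was counted as a library of its own.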

Additional observations from a re-analysis of the deposited data

How the results depend on the processing

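*Pde2a* was negative in all 14 alternative settings and under an FDR of 0.1 in 3. The number of members at an FDR of 0.1 was 0 in the reported test and 1 (*Pde2a*) with each of DESeq2, no filter and the exact test of edgeR. At an unadjusted p under 0.05 it was 1, against 3 without a filter, where *Pde3b* and *Pde7a* joined it. Leaving out a replicate gave from 1 to 3. Members without overlap numbered 2, or 1 with library size only (11.6% of all genes). Leaving out a replicate gave from 2 to 4, where 19.5% to 24.9% of all genes did not overlap. Pathway genes at an unadjusted p under 0.05 numbered 5, against 3 with library size only, 11 without a filter, 2 with the replicate block, or 3 to 8 when leaving out a replicate. Over all genes the FDR of 0.1 was passed by 3 genes, by 40 in DESeq2, by 80 in the exact test, by 131 with no filter and by 0 with the replicate block (679 at an unadjusted p under 0.05). With a replicate left out it gave from 0 to 9, with 0 without OGT-deficient replicate 2 or 3 (462 and 742 at an unadjusted p under 0.05). An unadjusted p under 0.05 held for 777 genes, for 502 in DESeq2, for 1208 with no filter and for 462 to 888 when leaving out a replicate.

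Small log2 fold changes changed sign. Without a filter *Pde4b* was 0.01 (0.0067) and *Prkar1a* 0.01 (0.0087). *Pde4d* was -0.0439 with library size only and -0.0018 with library size without the ribosomal RNA gene *Rn45s*, a setting chosen after seeing the data. With a replicate left out *Pde3b* ranged from -1.08 to 0.14, *Pde4b* from -0.17 to 0.0679, *Pde4d* from -0.10 to 0.16, *Adcy7* from -0.36 to 0.0775, *Prkar1a* from -0.0821 to 0.10 and *Prkaca* from -0.13 to 0.21. The cause was not tested.

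Samples with the same replicate number did not deviate together (correlations of deviations -0.290, 0.0101 and -0.121). With 3 samples a group, 1 of them standing apart, these correlations cannot decide whether the mice were matched. *Pde2a* was -0.91 with the replicate block (adjusted p = 0.631, edgeR's quasi-likelihood test), a fit with fewer degrees of freedom. Members with few counts, such as *Pde4a* at 16 to 18 per sample, are limited by depth.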

Other observations

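Some pathway genes outside the comparisons above were chosen after their values were seen. *Ptger3*, a prostaglandin E2 receptor coupled mainly to the inhibitory G protein, had 5, 3 and 3 counts in OGT-sufficient mice (replicates 1 to 3) and 14, 8 and 12 in OGT-deficient mice. It had too few counts for the reported test, and a gene picked from 97 for its separation is no result by itself. The Gs-coupled prostaglandin E2 receptors *Ptger4* (78.6 ± 13.0 against 68.1 ± 2.76 CPM, SD, n = 3 each) and *Ptger2* (19.3 ± 4.99 against 15.7 ± 1.81 CPM) overlapped between the groups. *Adrb1*, the beta-1 adrenergic receptor, had 63, 34 and 20 counts in OGT-sufficient mice and 12, 44 and 114 in OGT-deficient mice. Within each genotype its samples stood in the order of their macrophage marker sums (4096, 3684 and 1899 CPM, and 1396, 5050 and 5860 CPM), whose part in its level was not tested.

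*Rapgef4*, which encodes the cAMP-activated exchange factor EPAC2, had 62, 26 and 126 counts in OGT-sufficient mice and 42, 33 and 34 in OGT-deficient mice. *Akap12* (116, 102 and 287 against 120, 112 and 108 counts) and *Vipr1*, a receptor for vasoactive intestinal peptide (86, 100 and 244 against 113, 114 and 139 counts), were also highest in OGT-sufficient replicate 3, as *Pde3b*, *Pde7a* and *Adcy7* were.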
